A study of Rattus norvegicus with 12 samples.

Results

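The Rab GTPases are small membrane-bound switches that set the identity and traffic of the compartments of a cell. They were followed here in the liver of rat fetuses whose mothers were fasted or fed. Members were chosen by name alone: every gene of the array's platform table whose symbol is Rab followed by a number, with up to a letter and a further digit after it. The rule found 54 members among 14497 named genes. RefSeq (assembly GRCr8) names 58 rat genes of this form. The other 4 were Rab37, Rab42 and Rab44, not analysed here, and Rab26, which shares a probe with another gene.

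The 12 arrays formed 4 groups of 3: polysome RNA from fetuses of fasted dams, polysome RNA from fetuses of fed dams, total RNA from fetuses of fasted dams and total RNA from fetuses of fed dams. All were livers of Sprague Dawley fetuses at day 19 of a 21-day gestation, delivered by caesarean section. The fasted dams had no food for 48 hr from day 17, which serves as a model of growth restriction in the womb, and the fed dams ate freely. Polysome RNA is RNA from the sucrose gradient fractions that hold messages loaded with several ribosomes, and per the labels it came from pooled polysome preparations. The labels call the arrays biological replicates and give 3 dams per diet, without tying an array to a dam. RNA was hybridised to Affymetrix Rat Gene 1.0 ST arrays.

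A Rab protein is inactive with GDP and active with GTP. Guanine nucleotide exchange factors (GEFs) switch it on at a membrane, where it recruits effectors that move, tether or fuse vesicles, and GTPase-activating proteins (GAPs) switch it off. New Rab proteins are bound by an escort protein, given lipid tails by a prenyltransferase, and recycled between membranes by GDP dissociation inhibitors. In hepatocytes this machinery carries secretion of serum proteins and lipoproteins, uptake and recycling of receptors, transport to the bile canaliculus, autophagy and the surface of lipid droplets.

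Levels are given as log2(intensity + 1), and a change is a difference of these values, so 1 unit stands for a doubling of the signal. A change carries its standard error (SE) from limma's fit, a level the SD of its 3 arrays, and n = 3 arrays per group holds throughout. Array values are listed in the order 1, 2, 3. Array medians lay between 101.3 and 108.3 intensity units, so a change is relative to the whole array. A gene was tested when its mean over the 12 arrays reached 6.071 log2, the 40th percentile of all probes, and p-values were adjusted over all 10174 genes tested (Benjamini-Hochberg). As liver tissue was measured in bulk, fewer cells of a type and less RNA per cell cannot be told apart. The 10 hepatocyte markers (Alb, Afp, Ttr and others) all passed the filter, their summed intensity was 99785 to 117109 per array, and none changed with fasting in either fraction.

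The filter kept 49 of the 54 members, or 90.7%, against 70.2% of all named genes. Their mean levels ran from 6.31 to 12.6 log2 with a median of 9.26, and 17 members lay above 10 log2. The 5 with the brightest probes were Rab7a, Rab1a, Rab14, Rab11b and Rab10. Rab7a, the Rab of late endosomes and lysosomes, had a mean of 12.58 log2 and exceeded 98.6% of named genes. Rab1a, which acts between endoplasmic reticulum (ER) and Golgi, followed at 12.31, and Rab14, of endosomes and Golgi, at 11.75. Rab11b, of recycling endosomes, had 11.65, as did Rab10, which delivers cargo to the plasma membrane. Probes differ in how brightly they bind, so this order describes signal and not copies of RNA.

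The 5 members under the filter were Rab3b, Rab6b, Rab9b, Rab33a and Rab3c. The first 4 stood just outside it with means of 5.88 to 6.001, and the members just inside were Rab25 at 6.31, with Rab36 and Rab19 above it. Rab3c, a Rab of regulated secretion in nerve cells, was the dimmest, between 4.27 and 5.02 on the 12 arrays. These 5 take no part in the tests.

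**Figure D1:**
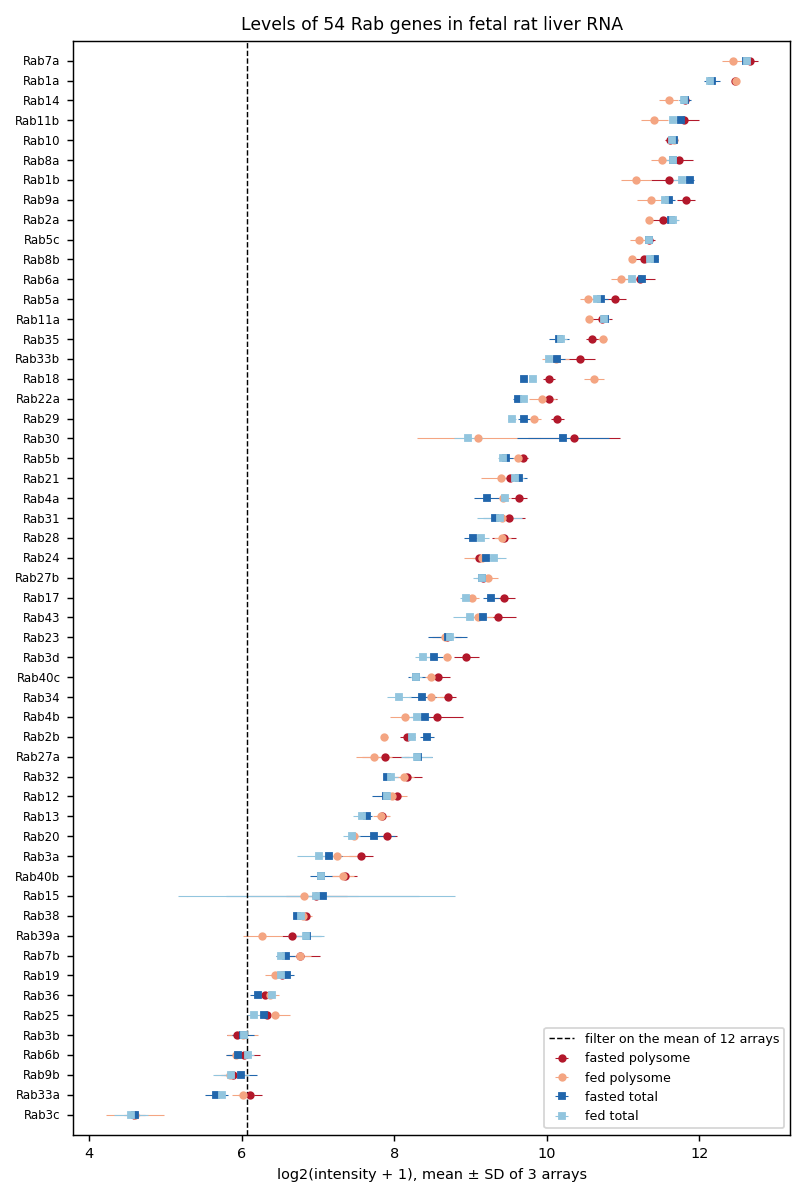
Mean level of each of the 54 Rab genes in log2(intensity + 1), with bars for the SD of 3 arrays, for fasted polysome, fed polysome, fasted total and fed total RNA. The dashed line is the filter at 6.071, which 49 genes passed, and Rab30 and Rab15 show the widest bars.

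The first question was which Rab transcripts changed on polysomes when the mother fasted. Rab9a and Rab17 rose and Rab18 fell (limma, adjusted p under 0.05), 3 of 49 members in all. Across all tested genes, 1.59% rose, 0.423% fell and 2.01% changed in either direction. Most other members were also higher without passing the test: 40 of the 49 changes were positive, with a median of 0.15 log2, whereas 53.96% of all tested genes were positive, with a median of 0.02. The median level of the tested members was 9.52, 9.27 and 9.61 on fasted polysome arrays, against 9.12, 9.36 and 9.32 on fed polysome arrays. These medians overlapped between the diets, and members read on the same arrays are not independent replicates. At an unadjusted p under 0.05 there were 20 members, 19 higher and 1 lower, beside 20.9% of all genes. The 3 fasted arrays all lay above the 3 fed arrays for 12 members, against 12.4% of all genes, and all below for 1, against 8.38%.

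The sequence before the start of 4 of these genes is shown because they carried the calls and the largest change. Each is the 150 bases up to the annotated start, 5′ to 3′ on the gene's strand, from RefSeq GRCr8. Capitals mark a GC box (GGGCGG) or a CCAAT box (CCAAT) on either strand.
Rab18, chr17:59639114-59639263, plus strand: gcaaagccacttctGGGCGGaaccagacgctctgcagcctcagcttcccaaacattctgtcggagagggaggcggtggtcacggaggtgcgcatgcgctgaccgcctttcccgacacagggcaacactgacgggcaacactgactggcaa
Rab9a, chrX:31609939-31610088, plus strand: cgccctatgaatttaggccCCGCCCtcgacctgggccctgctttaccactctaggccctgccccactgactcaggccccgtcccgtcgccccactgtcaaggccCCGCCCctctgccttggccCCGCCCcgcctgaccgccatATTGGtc
Rab17, chr9:99014033-99014182, minus strand: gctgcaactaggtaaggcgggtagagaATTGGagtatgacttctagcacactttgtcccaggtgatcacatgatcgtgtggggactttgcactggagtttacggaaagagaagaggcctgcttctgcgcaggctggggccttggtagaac
Rab30, chr1:156215987-156216136, plus strand: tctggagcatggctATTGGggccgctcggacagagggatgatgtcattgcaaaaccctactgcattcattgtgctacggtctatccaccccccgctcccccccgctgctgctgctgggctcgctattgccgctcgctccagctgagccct
Rab9a held 3 GC boxes and Rab18 held 1, whereas Rab17 and Rab30 held none in these stretches. Rab9a, Rab17 and Rab30 each held 1 CCAAT box.

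Of the 54 members, 45 matched a RefSeq promoter window of 250 bases before to 50 after the start. The GC box occurred in 36 of the 45 windows (80%), against 33.1% of the 33469 windows of all genes. The CCAAT box occurred in 17 (37.8%), against 37.5%. The palindromic E-box CACGTG occurred in 4 members, Rab20, Rab21, Rab31 and Rab5a (8.89%, against 6.42%), and the full cyclic AMP response element TGACGTCA in Rab25 alone (2.22%, against 1.83%). The forkhead motif GTAAACA and the DR1 repeat bound by nuclear receptors (AGGTCA repeated after a spacer base) were in 0 of the 45 windows, against 3.78% and 0.0538% of all windows. Both strands were searched, no motif searched contains another, and a match is a description of letters and not a bound site. Each member gave a single window. The windows of all genes were not reduced in this way, nor limited to genes named on the array or tested. The shares therefore compare unlike sets.

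Rab18, a Rab of lipid droplets and the ER, gave 10.01, 9.95 and 10.11 log2 on the fasted polysome arrays, against 10.49, 10.63 and 10.74 on the fed polysome arrays. In total RNA it gave 9.68, 9.71 and 9.73 in fasted livers, against 9.83, 9.80 and 9.82 in fed livers. The fasted arrays lay below the fed arrays in both fractions without overlap. The fall on polysomes was 1.51-fold (-0.60 ± 0.08, limma adjusted p = 0.00446). In total RNA the change was -0.11 ± 0.08 and did not pass (limma adjusted p = 0.527). The call on polysomes held when any 1 of the 12 arrays was left out. It did not hold when the gene's 2 probes were averaged (-0.21, limma adjusted p = 0.173), since the change on the dimmer probe was positive.

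Rab9a carries cargo from late endosomes back to the Golgi. It gave 11.93, 11.70 and 11.85 on the fasted polysome arrays, against 11.48, 11.46 and 11.15 on the fed polysome arrays, and 11.62, 11.66 and 11.52 in fasted total RNA, against 11.54, 11.52 and 11.60 in fed total RNA. The polysome groups were apart and the total groups overlapped. The rise on polysomes was 1.38-fold (0.46 ± 0.10, limma adjusted p = 0.0354), and the change in total RNA was 0.05 ± 0.10.

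Rab17, a Rab of polarised epithelial cells that takes part in transport across the cell, gave 9.52, 9.27 and 9.52 on the fasted polysome arrays, against 9.12, 8.95 and 8.96 on the fed polysome arrays. In total RNA it gave 9.39, 9.17 and 9.25 in fasted livers, against 8.87, 8.92 and 9.03 in fed livers. Fasted arrays exceeded fed arrays in both fractions. The polysome rise was 1.34-fold (0.43 ± 0.09, limma adjusted p = 0.0394), and the total RNA change of 0.33 ± 0.09 did not pass (limma adjusted p = 0.103). Both rises were close to the threshold. Rab9a lost its call without fed total 1, fasted polysome 1, fasted polysome 3, fed polysome 2 or fed polysome 3 (adjusted p 0.0507 to 0.135), and Rab17 without these or fed total 2 (adjusted p 0.0507 to 0.147).

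**Figure D2:**
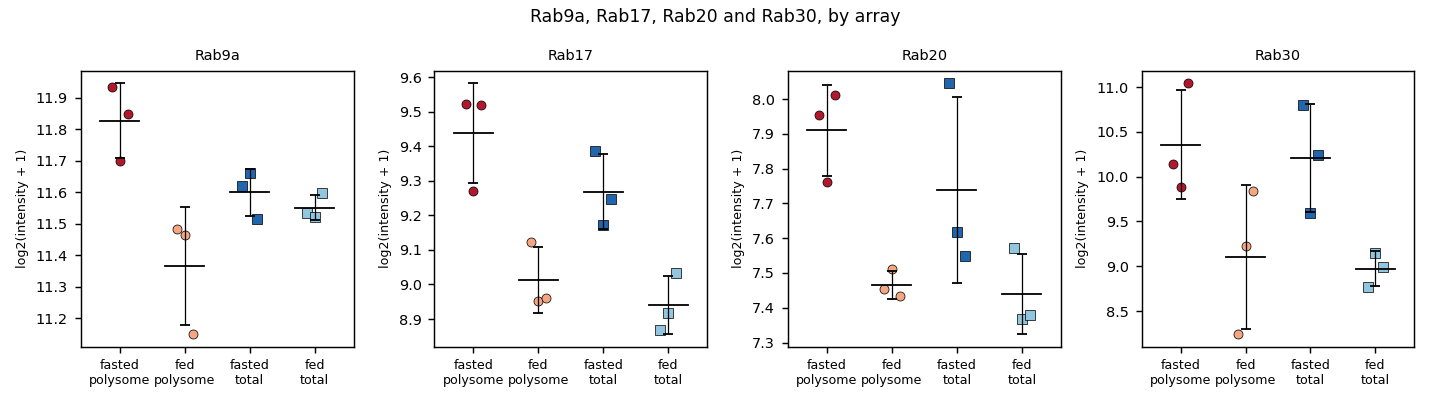
Level of Rab9a, Rab17, Rab20 and Rab30 on each array in log2(intensity + 1), with the mean and SD of 3 arrays, for fasted polysome, fed polysome, fasted total and fed total RNA. The fasted and fed polysome arrays are apart for all 4 genes, and the points of Rab30 are the most scattered, from 8.24 to 11.04.

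Rab30, a Golgi Rab, had the largest change of the family in both fractions and passed in neither. It gave 10.14, 9.89 and 11.04 on the fasted polysome arrays, against 8.24, 9.22 and 9.84 on the fed polysome arrays. In total RNA it gave 10.80, 9.60 and 10.24 in fasted livers, against 8.77, 9.15 and 8.99 in fed livers. All fasted arrays exceeded all fed arrays of the same fraction, but arrays of 1 group lay far apart. The change was 1.25 ± 0.38 on polysomes (limma adjusted p = 0.0948) and 1.24 ± 0.38 in total RNA (limma adjusted p = 0.131). Rab20, linked to phagosome and endosome maturation, gave 7.95, 7.76 and 8.01 on the fasted polysome arrays, against 7.45, 7.51 and 7.43 on the fed polysome arrays. Its change of 0.44 ± 0.12 did not pass (limma adjusted p = 0.0638), although the groups did not overlap.

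The positive polysome values were spread over the roles. All 10 early endosome members were positive, with a median of 0.17 log2, among them Rab5c, the brightest, at 0.14 ± 0.07, Rab5a at 0.35 ± 0.09, Rab4b at 0.42 ± 0.14 and Rab4a at 0.20 ± 0.09. Of 11 ER and Golgi members 9 were positive, with a median of 0.25, and Rab1b at 0.43 ± 0.12 and Rab2b at 0.30 ± 0.08 were among them. Of 6 recycling members 4 were positive, with a median of 0.17, and Rab11b had 0.39 ± 0.10 and Rab35 -0.14 ± 0.08. Of 6 late endosome and lysosome members 4 were positive (median 0.14), Rab7a with 0.23 ± 0.08 among them, as were 3 of 3 lysosome-related organelle members (median 0.05) and 6 of 8 secretion members (median 0.15). Apart from Rab9a, Rab17 and Rab18 none of these passed the adjusted threshold.

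The count of called members depended on single arrays. It was 1 without fed total 1, fasted polysome 1, fasted polysome 3, fed polysome 2 or fed polysome 3. It was 9 without fed polysome 1 and 13 without fasted polysome 2, of which 8 and 12 were rises. Over all genes, 2.01% passed with every array, 0.108% to 0.973% in the fits that called 1 member, 5.07% without fed polysome 1 and 7.42% without fasted polysome 2. Fasted polysome 2 was the lowest array of its group for 37 of the 49 members, and for 48.0% of all tested genes. Fed polysome 1 was the highest of its group for 28 members, and for 36.2% of all tested genes. Other arrays also stood out: fasted polysome 1 was the highest of its group for 28 members (38.9% of all tested genes). Fed polysome 3 was the lowest of its group for 25 (34.8%). Leaving out fasted polysome 2 and fed polysome 1 together was a choice made after seeing the data. In that fit 16 members passed, 15 of them rises, as did 12.4% of all genes. Rab18 fell in each of these fits.

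**Figure D3:**
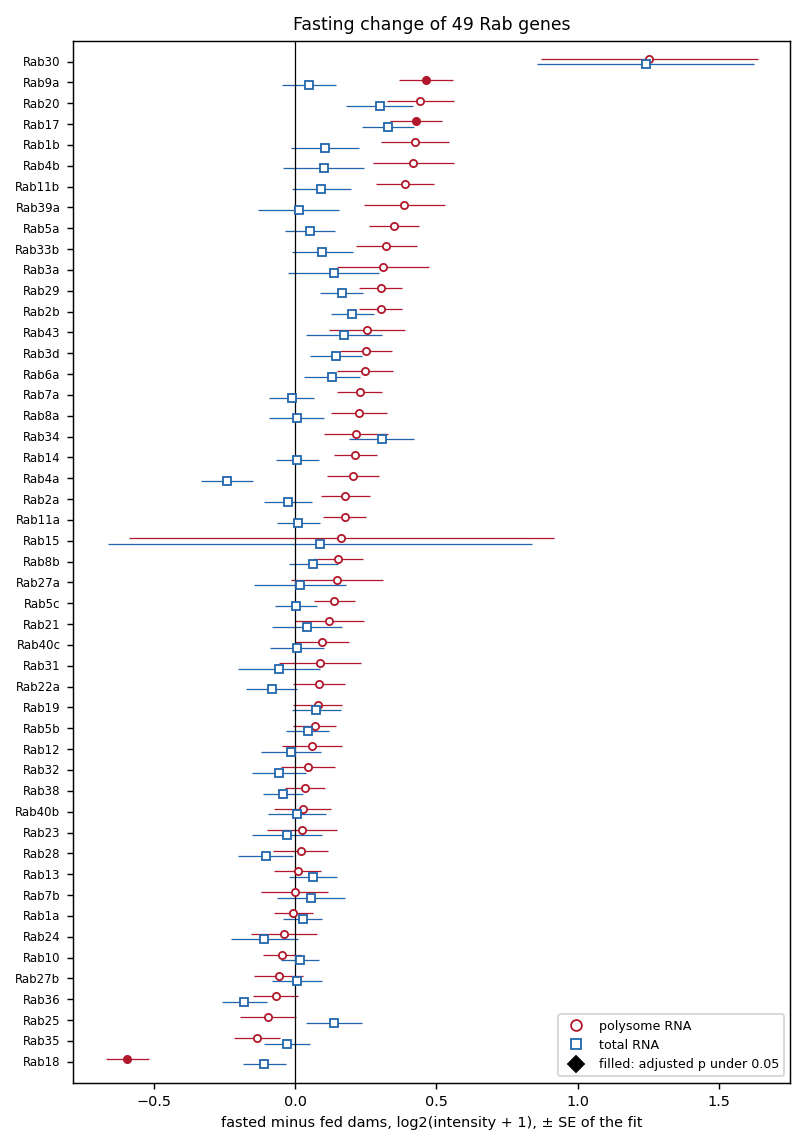
Change of each of the 49 tested Rab genes between fasted and fed dams in log2(intensity + 1), with bars for the SE of the fit, for polysome RNA (circles) and total RNA (squares). Filled symbols passed the adjusted threshold, which only Rab9a, Rab17 and Rab18 on polysomes did, and 40 polysome and 35 total RNA changes are positive.

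The same comparison in total RNA asked which Rab transcripts changed in the liver as a whole. None of the 49 members passed (limma, adjusted p under 0.05), where 1.03% of all tested genes did. At an unadjusted p under 0.05 there were 8 members, beside 16.2% of all tested genes. Rab30, Rab17, Rab34, Rab20, Rab2b and Rab29 were higher, and Rab4a and Rab36 were lower. The median change was 0.03 log2, and 35 of 49 were positive, beside a median of 0.000675 and 50.2% positive over all genes. Fasted arrays lay above fed arrays for 7 members, against 12.9% of all genes, and below for 3, against 11.9%.

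After Rab30 and Rab17, the largest changes in total RNA were those of Rab34, Rab20 and Rab4a. Rab34, which positions lysosomes and takes part in making cilia, gave 8.33, 8.56 and 8.21 in fasted livers, against 7.95, 8.24 and 8.005 in fed livers (0.31 ± 0.11, limma adjusted p = 0.206). Rab20 gave 8.05, 7.62 and 7.55 in fasted livers, against 7.57, 7.37 and 7.38 in fed livers (0.30 ± 0.12, limma adjusted p = 0.232). Both sets overlapped between the diets. Rab4a, which returns receptors from early endosomes to the surface, gave 9.16, 9.40 and 9.07 in fasted livers, against 9.44, 9.48 and 9.42 in fed livers. Its fasted arrays were all lower, and the change was -0.24 ± 0.09 (limma adjusted p = 0.219). No member had a call to lose when single arrays were left out, and the count stayed at 0 in those fits. It was 1, Rab17, without fed polysome 1 and fasted polysome 2 together (limma adjusted p = 0.0480).

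Whether fasting acted differently on the polysome and the total level was tested as the difference between the fasting changes. No member passed, and none of the 10174 genes did (limma, adjusted p under 0.05). At an unadjusted p under 0.05 there were 4 members, beside 5.4% of all genes. The 5 members with the largest differences were Rab18 (-0.48 ± 0.11), Rab4a (0.44 ± 0.13), Rab9a (0.41 ± 0.13), Rab39a (0.37 ± 0.20) and Rab1b (0.32 ± 0.17), each with a limma adjusted p of 0.856. For Rab4a, the change was 0.20 ± 0.09 on polysomes and -0.24 ± 0.09 in total RNA. In all, 40 of 49 differences were positive, with a median of 0.10 log2, against 53.3% of all genes and a median of 0.01.

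The second kind of comparison set polysome RNA against total RNA within a diet, which asks how the family's messages were distributed relative to those of other genes. In fasted livers 14 members were higher on polysomes and 2 lower, beside 25.5% and 18.2% of all genes. In fed livers 11 were higher and 6 lower, beside 24.1% and 19.4% of all genes. In either direction 16 and 17 of 49 members passed, and 43.7% and 43.5% of all genes did. The polysome arrays lay above the total arrays without overlap for 16 members in fasted livers and 12 in fed livers, beside 31.1% and 29.4% of all genes, and below for 3 and 12, beside 21.5% and 23.5%. At an unadjusted p under 0.05 there were 20 and 22 members, beside 50.7% and 50.8% of all genes. The median member differed by 0.14 log2 in fasted and 0.03 in fed livers, and the median of all genes by 0.05 and 0.04. The 9 higher in both diets were Rab1a, Rab3d, Rab18, Rab22a, Rab28, Rab29, Rab34, Rab35 and Rab40b, and Rab2b and Rab27a were lower in both. No member passed in opposite directions.

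**Figure D4:**
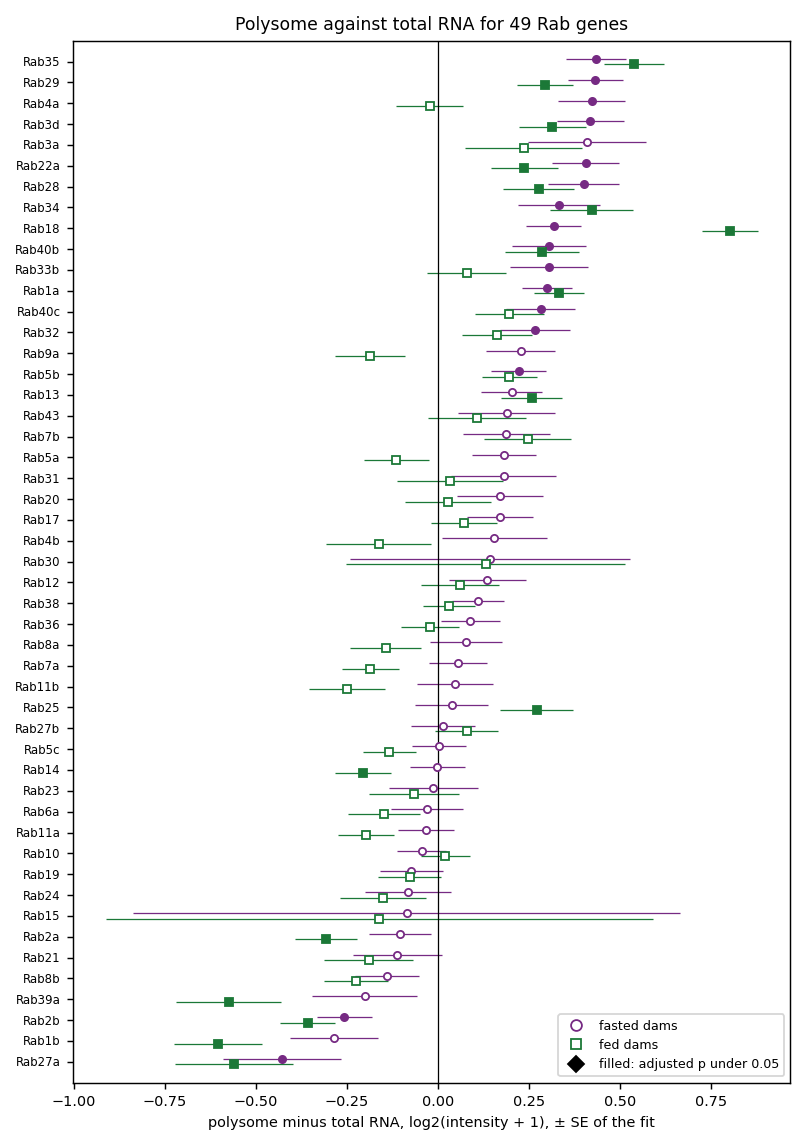
Difference of each of the 49 tested Rab genes between polysome and total RNA in log2(intensity + 1), with bars for the SE of the fit, in fasted dams (circles) and fed dams (squares). Filled symbols passed the adjusted threshold. On the brightest probes, Rab18 in fed dams at 0.80 is the highest and Rab1b in fed dams at -0.60 the lowest.

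Among the ER and Golgi members, Rab1a was higher and Rab2b lower on polysomes in both diets. Rab1a gave 12.47, 12.47 and 12.46 on fasted polysome arrays, against 12.24, 12.05 and 12.21 on fasted total arrays, and 12.46, 12.52 and 12.44 on fed polysome arrays, against 12.11, 12.13 and 12.18 on fed total arrays. The groups were apart in both diets, by 0.30 ± 0.07 in fasted and 0.33 ± 0.07 in fed livers (limma adjusted p = 0.00342 and 0.00172). Rab2b, a Golgi Rab, gave 8.26, 8.07 and 8.19 on fasted polysome arrays, against 8.42, 8.34 and 8.53 on fasted total arrays. It gave 7.92, 7.83 and 7.85 on fed polysome arrays, against 8.27, 8.18 and 8.22 on fed total arrays. It was lower by -0.26 ± 0.08 in fasted and -0.36 ± 0.08 in fed livers (limma adjusted p = 0.0146 and 0.00199), again without overlap. The fasted call was lost without fasted total 3 or fasted polysome 2.

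Its paralog Rab2a gave 11.60, 11.35 and 11.60 on fasted polysome arrays, against 11.60, 11.54 and 11.73 on fasted total arrays, and 11.30, 11.35 and 11.37 on fed polysome arrays, against 11.59, 11.61 and 11.74 on fed total arrays. It passed in fed livers alone, at -0.31 ± 0.09 (limma adjusted p = 0.0108), where the groups were apart. Rab1b, the paralog of Rab1a, gave 11.79, 11.34 and 11.65 on fasted polysome arrays, against 11.92, 11.83 and 11.89 on fasted total arrays. It gave 11.38, 11.11 and 11.01 on fed polysome arrays, against 11.76, 11.65 and 11.91 on fed total arrays. It was 1.52-fold lower on polysomes in fed livers (-0.60 ± 0.12, limma adjusted p = 0.00132), and its -0.28 ± 0.12 in fasted livers did not pass (limma adjusted p = 0.0727). The brighter probes of Rab1a and Rab1b thus lay on opposite sides of 0. The dimmer probe of Rab1b was instead higher on polysomes (0.20 ± 0.09 in fed livers), and with its probes averaged the fed call was lost.

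Rab33b, a Golgi Rab that also binds the autophagy protein Atg16l1, gave 10.57, 10.21 and 10.52 on fasted polysome arrays, against 10.24, 10.03 and 10.12 on fasted total arrays. It gave 10.30, 9.95 and 10.09 on fed polysome arrays, against 10.0002, 10.05 and 10.05 on fed total arrays. The fasted groups overlapped slightly, and the difference passed there, at 0.31 ± 0.11 (limma adjusted p = 0.0343). Rab39a gave 6.81, 6.59 and 6.57 on fasted polysome arrays, against 6.66, 6.90 and 7.02 on fasted total arrays, and 6.49, 6.33 and 5.99 on fed polysome arrays, against 7.11, 6.65 and 6.78 on fed total arrays. It was lower in fed livers by -0.57 ± 0.14 (limma adjusted p = 0.00576), where one polysome array lay below the filter level.

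Rab18, the lipid droplet member, was 1.25-fold higher on polysomes in fasted livers (0.32 ± 0.08, limma adjusted p = 0.00422). In fed livers it was 1.74-fold higher (0.80 ± 0.08, limma adjusted p = 5.62e-06), the largest difference of the family in that comparison on the brightest probes. Its polysome arrays exceeded its total arrays in both diets, by the values given above. With its probes averaged, the fasted difference did not pass (limma adjusted p = 0.248), and the fed difference was 0.27 (limma adjusted p = 0.0189), below that of Rab35.

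Among the early endosome members, Rab22a was higher in both diets and Rab4a and Rab5b in fasted livers. Rab22a gave 10.08, 9.90 and 10.10 on fasted polysome arrays, against 9.69, 9.57 and 9.59 on fasted total arrays, a difference of 0.41 ± 0.09 (limma adjusted p = 0.00288). It gave 10.05, 10.04 and 9.73 on fed polysome arrays, against 9.67, 9.69 and 9.74 on fed total arrays, where the groups overlapped and the difference of 0.24 ± 0.09 only just passed (limma adjusted p = 0.0496). Rab4a gave 9.74, 9.52 and 9.64 on fasted polysome arrays, against 9.16, 9.40 and 9.07 on fasted total arrays. It gave 9.52, 9.43 and 9.33 on fed polysome arrays, against 9.44, 9.48 and 9.42 on fed total arrays. Its difference was 0.42 ± 0.09 in fasted livers (limma adjusted p = 0.0023) and -0.02 ± 0.09 in fed livers. Rab5b, one of the Rabs that drive fusion of early endosomes, gave 9.76, 9.63 and 9.68 on fasted polysome arrays, against 9.36, 9.53 and 9.51 on fasted total arrays. It gave 9.64, 9.53 and 9.69 on fed polysome arrays, against 9.44, 9.48 and 9.35 on fed total arrays. The groups were apart in both diets, the difference passed in fasted livers (0.22 ± 0.08, limma adjusted p = 0.0299), and with the replicate block it did not (adjusted p = 0.0511).

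Of the recycling members, Rab35 was higher in both diets, and Rab14 was lower and Rab25 higher in fed livers. Rab35, which returns membrane quickly to the surface, gave 10.68, 10.52 and 10.58 on fasted polysome arrays, against 10.02, 10.29 and 10.17 on fasted total arrays. It gave 10.67, 10.78 and 10.74 on fed polysome arrays, against 10.27, 10.19 and 10.11 on fed total arrays. The differences were 0.43 ± 0.08 and 0.54 ± 0.08 in fasted and fed livers (limma adjusted p = 0.000894 and 0.000185). Rab14 gave 11.86, 11.77 and 11.79 on fasted polysome arrays, against 11.83, 11.87 and 11.72 on fasted total arrays, and 11.71, 11.61 and 11.47 on fed polysome arrays, against 11.79, 11.77 and 11.84 on fed total arrays. Its fed polysome arrays were all lower, by -0.21 ± 0.08 (limma adjusted p = 0.0428, and 0.0523 with the replicate block). Rab25, an epithelial relative of Rab11, gave 6.23, 6.46 and 6.32 on fasted polysome arrays, against 6.26, 6.37 and 6.27 on fasted total arrays. It gave 6.65, 6.27 and 6.37 on fed polysome arrays, against 6.06, 6.201 and 6.22 on fed total arrays, a difference of 0.27 ± 0.10 (limma adjusted p = 0.0413). These levels were close to the filter, and fed total 1 lay below it. The call held in 4 of the 12 fits that left out 1 array.

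Of the members listed here under late endosomes and lysosomes, only Rab34 passed, in both diets. It gave 8.76, 8.58 and 8.76 on fasted polysome arrays and 8.30, 8.54 and 8.62 on fed polysome arrays, beside the total values given above. The differences were 0.33 ± 0.11 in fasted and 0.42 ± 0.11 in fed livers (limma adjusted p = 0.0297 and 0.00859), and the groups were apart in both. Rab29 and Rab32, with Rab38 the Rabs of lysosome-related organelles, were also higher. Rab29, which recruits the kinase Lrrk2 to membranes, gave 10.18, 10.04 and 10.19 on fasted polysome arrays, against 9.61, 9.74 and 9.76 on fasted total arrays. It gave 9.94, 9.77 and 9.80 on fed polysome arrays, against 9.48, 9.55 and 9.59 on fed total arrays. The groups were apart in both diets, by 0.43 ± 0.08 and 0.29 ± 0.08 (limma adjusted p = 0.000517 and 0.00695). Rab32 gave 8.26, 7.96 and 8.30 on fasted polysome arrays, against 7.93, 7.89 and 7.90 on fasted total arrays, and 8.16, 8.23 and 7.98 on fed polysome arrays, against 7.95, 7.89 and 8.05 on fed total arrays. It passed in fasted livers, at 0.27 ± 0.10 (limma adjusted p = 0.0389). Rab38, of melanosomes, lay between 6.69 and 6.92 on all 12 arrays and passed in neither diet.

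Among the secretion members, Rab3d was higher and Rab27a lower in both diets. Rab3d, of regulated secretory granules, gave 9.10, 8.95 and 8.78 on fasted polysome arrays, against 8.64, 8.51 and 8.43 on fasted total arrays. It gave 8.68, 8.74 and 8.66 on fed polysome arrays, against 8.39, 8.48 and 8.27 on fed total arrays. The groups were apart, by 0.42 ± 0.09 and 0.31 ± 0.09 (limma adjusted p = 0.00238 and 0.0135). Rab27a, which docks secretory lysosomes and exosome-bearing bodies, gave 8.10, 7.53 and 8.02 on fasted polysome arrays, against 8.39, 8.10 and 8.44 on fasted total arrays. It gave 7.46, 7.83 and 7.91 on fed polysome arrays, against 8.07, 8.37 and 8.44 on fed total arrays. The differences were -0.43 ± 0.16 and -0.56 ± 0.16 (limma adjusted p = 0.0472 and 0.0132). Rab13, of tight junctions, gave 7.75, 7.86 and 7.91 on fasted polysome arrays, against 7.71, 7.62 and 7.58 on fasted total arrays, and 7.71, 7.87 and 7.92 on fed polysome arrays, against 7.48, 7.70 and 7.54 on fed total arrays. It passed in fed livers (0.26 ± 0.08, limma adjusted p = 0.0237), and its 0.20 ± 0.08 in fasted livers did not (limma adjusted p = 0.0658). The brightest of this role, Rab10 and Rab8a, passed in neither diet, at -0.04 ± 0.07 and 0.08 ± 0.10 in fasted livers.

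Rab28, of cilia and photoreceptors, gave 9.38, 9.32 and 9.61 on fasted polysome arrays, against 8.90, 9.05 and 9.16 on fasted total arrays. It gave 9.46, 9.50 and 9.30 on fed polysome arrays, against 9.23, 9.16 and 9.04 on fed total arrays, and was higher by 0.40 ± 0.10 and 0.28 ± 0.10 (limma adjusted p = 0.00466 and 0.0344). The other ciliary member, Rab23, an inhibitor of hedgehog signalling in the mouse, differed by -0.01 ± 0.12 and -0.06 ± 0.12. Rab40b and Rab40c carry a SOCS box, which links them to ubiquitin ligases. Rab40b gave 7.43, 7.16 and 7.45 on fasted polysome arrays, against 6.91, 7.20 and 7.02 on fasted total arrays, and 7.46, 7.34 and 7.17 on fed polysome arrays, against 6.9997, 7.08 and 7.03 on fed total arrays. It was higher in both, by 0.31 ± 0.10 and 0.29 ± 0.10 (limma adjusted p = 0.0265 and 0.036). Rab40c gave 8.58, 8.42 and 8.72 on fasted polysome arrays, against 8.17, 8.38 and 8.32 on fasted total arrays, and 8.58, 8.35 and 8.51 on fed polysome arrays, against 8.36, 8.28 and 8.21 on fed total arrays. It passed in fasted livers (0.28 ± 0.09, limma adjusted p = 0.0273).

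Of the 16 calls in fasted livers, 8 held when any 1 array was left out: Rab1a, Rab35, Rab18, Rab22a, Rab29, Rab4a, Rab28 and Rab3d. Of the 17 in fed livers, 8 held: Rab1a, Rab1b, Rab35, Rab18, Rab29, Rab34, Rab2b and Rab39a. With the replicate block, which pairs polysome and total arrays of the same diet and number, Rab1b (lower) and Rab3a (higher) passed in addition in fasted livers, and Rab11b and Rab8b (both lower) in fed livers. The fasted count was 10 without fasted total 3 and 9 without fasted polysome 3, and the fed count was 8 without fed total 3.

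Of the members, 6 had 2 probes, and for Rab18 and Rab1b the probes disagreed. The probe of Rab18 used above had a mean of 10.04 log2 and the other one 9.94. On the dimmer probe the fasted polysome arrays gave 10.06, 9.79 and 9.998, against 9.59, 9.81 and 9.94 on the fed polysome arrays, and total RNA gave 9.96, 9.98 and 10.09 in fasted livers, against 10.07, 9.98 and 10.07 in fed livers. Its fasting change on polysomes was 0.17 ± 0.10 and its fed polysome difference -0.26 ± 0.10, whereas the brighter probe had -0.60 and 0.80. The signs were opposite for fasting on polysomes and for polysome against total RNA in both diets.

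The dimmer probe of Rab1b gave 11.01, 10.75 and 10.95 on fasted polysome arrays, against 10.88, 10.71 and 10.60 on fed polysome arrays. In total RNA it gave 10.61, 10.55 and 10.52 in fasted livers, against 10.49, 10.63 and 10.48 in fed livers. It was higher on polysomes by 0.34 ± 0.09 in fasted and 0.20 ± 0.09 in fed livers, and the brighter probe lower by -0.28 and -0.60. With the probes averaged, Rab1b did not pass in fed livers (limma adjusted p = 0.118). The probes of the early endosome member Rab5a moved alike, by 0.35 ± 0.09 and 0.38 ± 0.09 on polysomes with fasting. Those of Rab1a were both higher on polysomes in fed livers, by 0.33 ± 0.07 and 0.15 ± 0.07. Those of Rab12 and Rab5c differed by -0.13 to 0.14 log2 between polysome and total RNA.

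**Figure D5:**
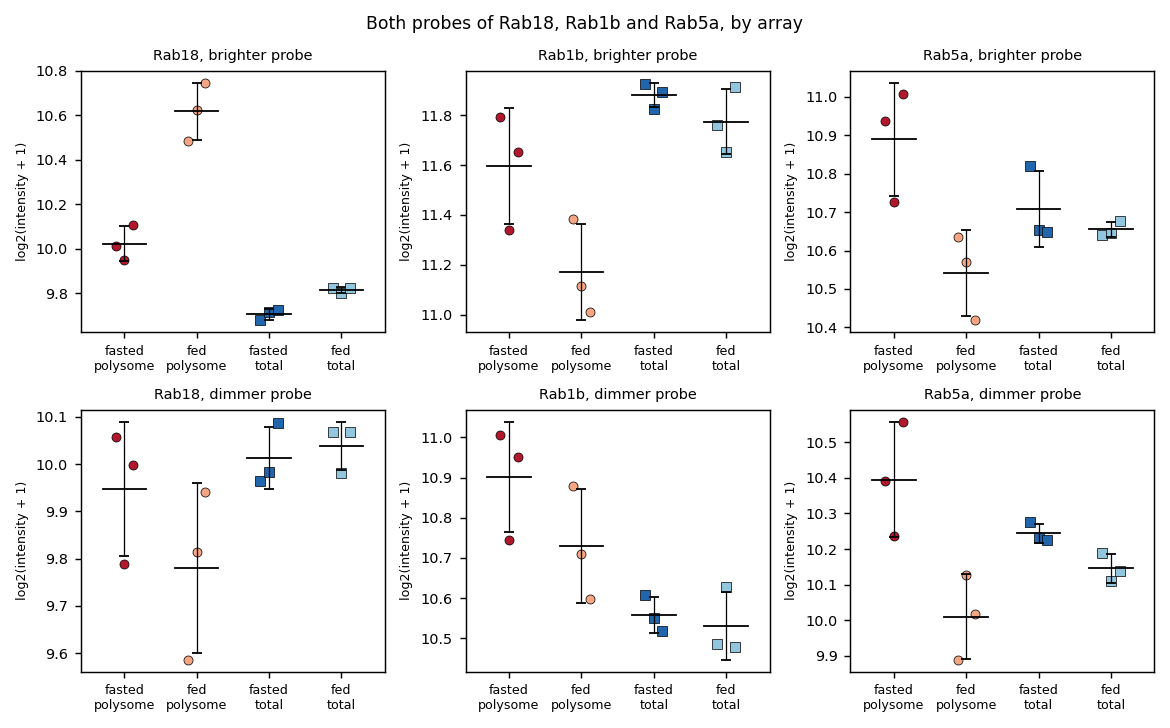
Level on each array of both probes of Rab18, Rab1b and Rab5a in log2(intensity + 1), with the mean and SD of 3 arrays, for fasted polysome, fed polysome, fasted total and fed total RNA. The fed polysome arrays of Rab18 are the highest group on the brighter probe and the lowest on the dimmer one, and the probes of Rab5a show the same order of polysome groups.

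The deposited values give no genome positions for probes, but probes with neighbouring numbers mostly belong to genes of the same chromosome (92.44% of adjacent named probes). The neighbours of the brighter probe lay on the gene's own chromosome for 5 of these 6 members, and those of the dimmer probe for 1. The exception was Rab5a, a gene of chromosome 9. Most neighbours of its brighter probe were genes of chromosome 14, where RefSeq names the protein-coding copy Rab5al1. Around the dimmer probes of Rab1a, Rab1b, Rab5c and Rab12, the neighbours lay on chromosomes 1, X, 2 and 1, which carry pseudogenes named after these genes. Around the dimmer probe of Rab18 they lay on chromosome 9, where RefSeq names no copy of Rab18. Copies were found by name only, and their likeness in sequence was not checked. Signal from any near-identical copy cannot be separated from the gene's own in these 6 members. Their values are uncertain to that extent. Members with a single probe were not searched for copies.

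The partners of the Rab proteins were read in the same fits. Among 7 tested genes of the Rab cycle, Chm rose on polysomes with fasting (0.43 ± 0.09, limma adjusted p = 0.0354). No other passed in either fraction. Over all genes 1.59% rose on polysomes. Chm is the escort protein that presents new Rabs for prenylation. Chm was nevertheless lower on polysomes than in total RNA, by -0.36 ± 0.09 in fasted and -0.83 ± 0.09 in fed livers (limma adjusted p = 0.00592 and 1.42e-05). Gdi2, which extracts Rabs from membranes, was lower as well, by -0.26 ± 0.07 and -0.27 ± 0.07. Rabggtb, the catalytic subunit of the prenyltransferase, was lower in fed livers (-0.45 ± 0.13), and its partner Rabggta and the chaperone Rabif were higher in fasted livers (0.24 ± 0.08 and 0.34 ± 0.11). In total RNA, the smallest p with fasting were those of Rabac1 (0.39 ± 0.10, limma adjusted p = 0.0921) and Chml (-0.24 ± 0.12).

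Of 15 tested GEFs, Madd, which activates Rab3 and Rab27, fell on polysomes with fasting (-0.34 ± 0.08, limma adjusted p = 0.046). Over all genes 0.423% fell on polysomes. In total RNA no GEF passed, and Madd had -0.28 ± 0.08 (limma adjusted p = 0.106), followed by Hps1 at 0.22 ± 0.08. On polysomes against total RNA, 9 GEFs were higher and 1 lower in each diet, beside 25.5% and 18.2% of all genes in fasted livers and 24.1% and 19.4% in fed livers. Rin3, which activates Rab5-type Rabs, was the highest, by 0.75 ± 0.10 in fasted and 0.74 ± 0.10 in fed livers. Dennd6b was the lower one, by -0.59 ± 0.11 and -0.78 ± 0.11. Rab3ip, Dennd2d, Mon1a, Dennd6a, Madd, Hps1 and Mon1b were higher in both diets, by 0.20 to 0.56 log2, as were Rin2 in fasted livers (0.26 ± 0.08) and Dennd5a in fed livers (0.30 ± 0.10).

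Of 18 tested GAPs, Tbc1d17 rose in total RNA with fasting (0.41 ± 0.07, limma adjusted p = 0.024), beside 0.737% of all genes. No GAP passed on polysomes. Usp6nl, a GAP of Rab5, had 0.28 ± 0.07 there (limma adjusted p = 0.0511) and Tbc1d17 0.24 ± 0.07. Against total RNA, 4 GAPs were higher on polysomes in fasted and 8 in fed livers, and 0 were lower. The fasted share, 4 of 18, lay near the 25.5% of all genes, and the fed count stood beside 24.1%. Tbc1d22b (0.52 ± 0.08 and 0.53 ± 0.08), Tbc1d14 (0.40 ± 0.09 and 0.60 ± 0.09), Tbc1d10a (0.25 ± 0.08 and 0.40 ± 0.08) and Sgsm3 (0.25 ± 0.09 and 0.36 ± 0.09) were higher in both. Tbc1d2, Tbc1d20, Tbc1d2b and Tbc1d25 were higher in fed livers, by 0.23 to 0.38 log2.

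Of 32 tested effectors, none passed with fasting in either fraction. Appl2, which binds Rab5 on early endosomes, had the smallest p, at 0.48 ± 0.12 on polysomes and 0.47 ± 0.12 in total RNA (limma adjusted p = 0.0599 and 0.089). Rab11fip1 on polysomes (0.26 ± 0.07) and Golga2 in total RNA (0.32 ± 0.10) followed. Against total RNA, 6 were higher and 1 lower on polysomes in fasted livers, and 7 higher and 2 lower in fed livers, each a smaller share than over all genes. Plekhm1 and Osbpl1a, both effectors of Rab7, were higher in both diets, the first by 0.57 ± 0.08 in each and the second by 0.35 ± 0.08 and 0.41 ± 0.08. Rab11fip1 (0.39 ± 0.07 and 0.28 ± 0.07) and the exocyst subunit Exoc6 (0.33 ± 0.11 and 0.50 ± 0.11) were also higher in both. Rabep2 (0.25 ± 0.08) and Pi4kb (0.31 ± 0.09) were higher in fasted livers, and Bicd2, Rilpl2 and Ehbp1l1 in fed livers, by 0.28 to 0.38 log2. Wdr44 was lower in fasted livers (-0.33 ± 0.11), and Eea1, the tether of early endosomes (-0.45 ± 0.11), and Ocrl (-0.24 ± 0.08) in fed livers.

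Some markers of other cells passed with fasting, and some between polysome and total RNA. Of 10 endothelial markers, 1 rose on polysomes and 3 in total RNA with fasting, and of 10 macrophage markers 2 and 0 did. Over all genes 1.59% rose on polysomes and 0.737% in total RNA. Summed endothelial intensity was 5251 to 5750 on fasted polysome arrays and 4749 to 5240 on fed polysome arrays, and 8851 to 8917 on fasted total arrays, against 7264 to 7987 on fed total arrays. Summed macrophage intensity was 7080 to 7375 on fasted polysome arrays and 6144 to 6352 on fed polysome arrays, and 9328 to 10365 on fasted total arrays, against 8339 to 8802 on fed total arrays. Summed megakaryocyte intensity went the other way on polysomes, with 3509 to 4052 on fasted and 4434 to 4908 on fed polysome arrays, and 0 of 5 markers passed (median change -0.34 log2). In total RNA it was 4550 to 5764 in fasted livers, against 4752 to 5272 in fed livers. The summed exocrine pancreas markers gave 580 to 657 on fasted total arrays, against 3110, 793 and 1268 on fed total 1, 2 and 3. In total RNA 1 of 5 tested, Cpa1, was lower, beside 0.295% of all genes. On polysomes the sums were 688 to 871 in fasted livers, against 608 to 968 in fed livers. None of the erythroid or neutrophil markers passed with fasting in either fraction.

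On polysomes against total RNA, 10 of 10 endothelial markers were lower in fasted and 8 in fed livers, 7 and 6 of 10 macrophage markers, and 5 and 4 of 10 hepatocyte markers, beside 18.2% and 19.4% of all genes. In fasted livers 1 macrophage and 1 hepatocyte marker were higher, and in fed livers 1 hepatocyte marker was, beside 25.5% and 24.1% of all genes. Of 7 erythroid markers 1 was higher and 1 lower in each diet. Of 8 neutrophil markers 2 were higher and 2 lower in fasted livers, and 2 and 3 in fed livers. Of 5 megakaryocyte markers 0 were higher and 2 lower in fasted livers, and 1 and 2 in fed livers. Of 5 exocrine pancreas markers tested, 1 was lower in fed livers and 0 passed in fasted livers. No marker was at 0 on any array. The part of these cell types in the Rab values was not tested.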

How the data were processed

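RMA is the tool that the submitters' processing notes name for the intensity values as deposited, without a version. They ran from 3.616 to 21344 over 28826 probes, a linear scale, and log2(value + 1) was taken here. Gene symbols came from the platform table, where 15209 probes had exactly 1, and the Entrez identifier updated 15178 of them. Each gene was read from its brightest probe. With limma 3.58.1 (R 4.3.3) a mean was fitted for each of the 4 groups over the 12 arrays, leaving 8 residual degrees of freedom beside 5.158 from the prior. Tests were two-sided at an adjusted p under 0.05. The SE of a change was 0.0953 log2 for the median Rab gene, and the number of arrays limits this precision.

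Named with values were members past the threshold in any comparison, the 5 largest changes of each, the 5 brightest, those under the filter, those with 2 probes, the 2 brightest of each role, and partner genes past the threshold or else with the smallest p. The members, roles and lists were chosen with earlier results of these data known. The labels do not say what an array number marks. Polysome and total arrays that share diet and number deviated together from their group means, with correlations of 0.154 to 0.362 in 6 pairs. For unequal numbers the correlations were -0.219 to -0.0227. For polysome against total RNA and for the difference between the fasting changes, the replicate block therefore took the numbers as pairs within a diet. The main fit paired no arrays, and results are from it unless the block is named. For fasted against fed, the replicate block was the number alone, shared by all 4 groups. Fasted and fed arrays of equal number and fraction had correlations of -0.145 to 0.253, and the labels do not match them. Alternatives were no filter, median centring, quantile normalization, averaged probes, log2 with nothing added, fits of only the arrays compared, trend and robust priors, a replicate block and the omission of each array. The joint omission of 2 polysome arrays was chosen after seeing the data. The script was tested on simulated data. Figures were drawn with matplotlib 3.10.9.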

Additional observations from a re-analysis of the deposited data

Results flagged for a closer look

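Rab9a was higher on polysomes than in total RNA on all arrays of fasted livers and lower on all arrays of fed livers. It gave 11.93, 11.70 and 11.85 log2 on fasted polysome arrays, against 11.62, 11.66 and 11.52 on fasted total arrays, and 11.48, 11.46 and 11.15 on fed polysome arrays, against 11.54, 11.52 and 11.60 on fed total arrays. The difference between the fasting changes was 0.41 log2 (0.41338 ± 0.13 SE, limma adjusted p = 0.856). It had an unadjusted p of 0.0089 and did not pass.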

How the results depend on the processing

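The count of Rab genes called for fasting on polysomes, 3 as reported, was 1 with no filter on dim genes, 1 with only the arrays compared, 7 with trend and robust priors, 7 with the replicate block and 16 without fed polysome 1 and fasted polysome 2 together. It ranged from 1 to 13 over the 12 fits that left out 1 array. With only the arrays compared there were fewer arrays in the fit, and with no filter more genes were tested. For total RNA the count was 1 without those 2 arrays together and 0 in every fit that left out 1 array. The polysome against total counts ranged from 9 to 19 in fasted livers and from 8 to 22 in fed livers when 1 array was left out. The median fasting change on polysomes stayed between 0.11 and 0.23 log2 over those fits. Among the 48 gene results followed, no alternative turned a called direction, 122 fits lost a call and 5 gained one, and 876 changed neither direction nor call. Beside the probe average for Rab18 and Rab1b, quantile normalization ended the fasted calls of Rab32, Rab33b, Rab40c and Rab5b (adjusted p 0.0524 to 0.0712) and the fed calls of Rab22a and Rab28 (0.071 and 0.0598). For fasted against fed, the block was a replicate number effect shared by all groups, which matched arrays of equal number between diets. The labels do not say that such arrays belong together. With this block Rab11b, Rab1b, Rab20 and Rab2b passed on polysomes beside the 3 reported, with Rab20 at a limma adjusted p of 0.0471. Between polysome and total RNA the replicate block changed the calls given in the report, and the counts became 17 in fasted and 18 in fed livers. The cause of these shifts was not tested. Genes near the filter, such as Rab25 and Rab39a, had signals close to those of dim probes.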

Other observations

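Rab15, an endosomal Rab chosen here after its values were seen, varied more than any other member. It gave 6.54, 7.32 and 7.09 log2 on fasted polysome arrays, against 7.17, 6.003 and 7.28 on fed polysome arrays. In total RNA it gave 5.72, 8.22 and 7.26 in fasted livers, against 9.07, 6.03 and 5.83 in fed livers. Fed total 1 and fasted total 1 marked the ends of its range of 3.35 log2, the highest and the lowest of the 12 arrays. The SD pooled over the groups was 1.18 log2, against 0.60 for Rab30 and a median of 0.119 over the members.

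The 14 members with mean levels of at least 10.69 log2, a split made after seeing the values, had a median fasting change of 0.22 log2 on polysomes, with 12 of 14 positive. The other 35 tested members had 0.09, with 28 positive. In fed livers the 14 had a median polysome difference of -0.19 log2, with 2 of 14 positive, and the other 35 had 0.08, with 24 positive. Both comparisons use the same fed polysome arrays, with opposite sign, so they are not separate observations. Genes outside the family were not split by level, so whether other bright genes differ likewise was not tested.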
